A study of Mus musculus with 10 samples.

Results

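The genes described are 7 of the 54446 in the table: Hmgcs1, Idi1, Fdft1, Sqle, Lss, Insig1 and Srebf2. They were chosen by gene symbol, from knowledge of the pathway, as sterol genes under the transcription factor SREBP2. Earlier results of these data were known when they were chosen. By role, 5 are enzymes of cholesterol synthesis, 1 (Insig1) is a brake on SREBP2 and 1 (Srebf2) encodes SREBP2 itself, so none of the 7 is a receptor or carrier that takes sterol up. The tissue was esophagus from C57BL/6 mice of WT genotype. In 5 libraries (C1 and D1 to D4) the mice had gone through a model of eosinophilic esophagitis made with the contact allergen oxazolone (OXA), and in 5 libraries (A1 to A5) through the vehicle control. The sources used here give no sex, age, dose, schedule or meaning of the letters in the library names. They speak of mice without tying a library to an animal, and the p-values below therefore cover only library-to-library spread, which may be technical.

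Cholesterol is built from acetyl-CoA through mevalonate, isoprenoids, squalene and lanosterol. When sterol is scarce in the endoplasmic reticulum, the escort protein Scap carries SREBP2 to the Golgi, where it is cut and released to switch on the genes of sterol synthesis and uptake. When sterol is plentiful, Insig proteins hold Scap back. In stratified squamous epithelia such as the esophagus and skin, cells make membranes as they divide and lipids as they differentiate.

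Libraries held between 3675479 and 8364227 reads in OXA and between 5094159 and 12108822 in vehicle. The deposited values are normalized counts, that is, reads divided by a size factor per library. Summed over 7 markers of the suprabasal epithelium, the differentiated layers that mark this tissue (1 of the 7 was at 0 in every library), they came to 209848 to 547952 in OXA and 606791 to 1027990 in vehicle. Skeletal muscle markers, from the striated muscle wall of the mouse esophagus, came to 65810 to 257492 in OXA and 143155 to 192819 in vehicle. Cell cycle markers came to 3140 to 5814 in OXA and 401 to 654 in vehicle, with 10 of 10 called higher. In bulk tissue, fewer cells of a type and less RNA per cell cannot be told apart.

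Promoter windows of 250 bases before the start site, from RefSeq on GRCm38.p6, were found for 5 of the 7 members (all but Sqle and Fdft1). SREBP binds sterol response elements, usually beside binding sites for the factor NF-Y. All 5 windows held a CCAAT box (letters CCAAT or ATTGG) and a GC box (GGGCGG or CCGCCC), against 33.85% and 32.7% of all 32851 windows. Each of these motifs was also in 24 of the 35 other sterol genes with a window. The letters TCACNCCAC, searched on both strands as a sterol response element, occurred in 1 of the 5 (Hmgcs1) and in 1.05% of all windows, and in 0 of the 35 other sterol genes. The E-box CACGTG occurred in 1 of the 5 (Insig1), in 6.02% of all windows and in 5 of the 35. Shown here are Hmgcs1, which holds the sterol element letters, Lss, the member that differed most between the groups, and Insig1, the feedback gene. Capitals mark CCAAT boxes and, in Hmgcs1, the stretch TCACCCCAC that starts 137 bases before the start site; no other motif is marked. The windows are chr13:119690101-119690350 for Hmgcs1, chr10:76531355-76531604 for Lss and chr5:28071162-28071411 for Insig1, all on the plus strand. A match to these letters is a description and not a site shown to be bound.
Hmgcs1: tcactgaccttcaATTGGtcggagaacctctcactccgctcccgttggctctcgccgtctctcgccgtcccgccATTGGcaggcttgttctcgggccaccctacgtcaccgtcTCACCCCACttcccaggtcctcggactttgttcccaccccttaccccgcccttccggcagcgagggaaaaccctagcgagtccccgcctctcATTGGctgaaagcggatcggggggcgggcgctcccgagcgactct
Lss: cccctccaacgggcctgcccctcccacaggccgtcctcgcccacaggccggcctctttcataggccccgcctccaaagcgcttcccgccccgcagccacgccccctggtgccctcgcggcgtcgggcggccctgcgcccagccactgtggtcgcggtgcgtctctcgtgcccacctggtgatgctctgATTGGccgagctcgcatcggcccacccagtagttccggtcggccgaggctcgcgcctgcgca
Insig1: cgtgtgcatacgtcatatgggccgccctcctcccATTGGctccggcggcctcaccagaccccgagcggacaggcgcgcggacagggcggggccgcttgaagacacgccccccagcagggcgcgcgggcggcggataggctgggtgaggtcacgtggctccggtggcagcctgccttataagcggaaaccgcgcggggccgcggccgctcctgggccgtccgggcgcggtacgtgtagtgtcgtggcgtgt

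The comparison asked whether transcripts of sterol synthesis differed between OXA and vehicle esophagus. None of the 7 members was called higher or lower after OXA, although 29.9% of the 14712 genes tested were called (adjusted p under 0.05, limma on log2(value + 1), two-sided). For no member did the groups separate, against 22.4% of all genes tested (12.0% with all OXA libraries above and 10.4% with all below). At an unadjusted limma p under 0.05 there was 1 member, Lss, against 40.9% of all genes tested. Neither edgeR nor DESeq2 on the recovered reads called any of the 7, while over all genes edgeR called 29.8% and DESeq2 33.2%. Before adjustment each had Lss alone among the members under 0.05, against 40.5% of all genes by edgeR and 41.6% by DESeq2. The median log2 fold change (OXA minus vehicle) was -0.078 over the members and -0.011 over all genes tested. Scaling to library totals in place of the deposited size factors moved the median of all genes to 0.11, with 65.4% of calls higher against 52.5%, and moved the median of the members to 0.052.

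Hmgcs1 (ENSMUSG00000093930.2, chromosome 13, 119690379 to 119708560 on GRCm38) makes HMG-CoA, an early intermediate on the way to mevalonate. It stood at 831 normalized counts in C1, 729 in D1, 1282 in D2, 1162 in D3 and 1714 in D4 among OXA libraries, against 1002 in A1, 969.7 in A2, 1021 in A3, 941 in A4 and 708 in A5 among vehicle libraries. In OXA, 3 libraries lay above every vehicle library and the other two lay within the vehicle range. The means were 1144 ± 391.96 in OXA and 928 ± 127 in vehicle (SD, n = 5 each), a log2 fold change of 0.25 ± 0.21 (SE) with a 95% interval of -0.20 to 0.70 (limma adjusted p = 0.405). Leaving out 1 library gave 0.082 (without D4) to 0.39 (without D1), array weights gave 0.046, and the sign turned to -0.14 without the 3 shallowest libraries (A5, D2 and D4), which hold the lowest vehicle value and the 2 highest OXA values.

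Idi1 (chromosome 13, 8885501 to 8892751), the isomerase that interconverts the building blocks of isoprenoids, stood at 521, 361, 664, 633 and 554 in C1 and D1 to D4, against 588, 517, 724, 517 and 505 in A1 to A5. Only D1 fell outside the vehicle range. The means were 547 ± 119 in OXA and 570.0 ± 92.1 in vehicle, with a log2 fold change of -0.078 ± 0.17 (95% interval -0.45 to 0.29, limma adjusted p = 0.767).

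Fdft1 (chromosome 14, 63144850 to 63179578) is squalene synthase, the first step committed to sterols. Its values were 753, 756, 851, 1040.1 and 897 in C1 and D1 to D4, against 867, 883, 1088, 829 and 1116 in A1 to A5. The lowest OXA libraries, C1 and D1, were below the vehicle range. The means were 859 ± 118 in OXA and 957 ± 135 in vehicle, a log2 fold change of -0.15 ± 0.14 (95% interval -0.45 to 0.14, limma adjusted p = 0.432).

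Sqle (chromosome 15, 59315077 to 59331492), squalene epoxidase, adds the oxygen that lets the ring close. It stood at 388, 281, 507, 420.4 and 522 in C1 and D1 to D4, against 387, 352, 579, 359 and 451 in A1 to A5. D1 lay below every vehicle library and the other OXA libraries within the vehicle range. The means were close, at 424 ± 97.6 in OXA and 426 ± 94.1 in vehicle. The log2 fold change was -0.014 ± 0.19, and its 95% interval of -0.42 to 0.39 corresponds to 0.748-fold to 1.31-fold (limma adjusted p = 0.963).

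Lss (ENSMUSG00000033105.12, chromosome 10, 76531588 to 76557438), lanosterol synthase, closes the ring. It was the member with the lowest OXA level relative to vehicle. In OXA it stood at 105 in C1, 74.6 in D1, 185 in D2, 173 in D3 and 102 in D4, against 175 in A1, 167 in A2, 192 in A3, 183 in A4 and 203 in A5. The libraries C1, D1 and D4 lay below every vehicle library, whereas D2 and D3 lay within the vehicle range. The means were 128 ± 48.3 in OXA and 184 ± 14.1 in vehicle, with a log2 fold change of -0.60 ± 0.22 and a 95% interval of -1.08 to -0.12 before adjustment. It missed the threshold after adjustment over all genes (limma adjusted p = 0.0579) and by the exact two-sided permutation test (p = 0.0556, against a smallest possible p of 0.00794). Of 24 alternatives 4 called it lower, among them without D2 (adjusted p = 0.0151) and without D3 (adjusted p = 0.0279), the OXA libraries that overlapped vehicle.

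Insig1 (ENSMUSG00000045294.11, chromosome 5, 28071363 to 28078962) retains Scap in the endoplasmic reticulum and is itself a target of SREBP2. It stood at 39.7, 49.8, 61.6, 64.2 and 73.4 in C1 and D1 to D4, against 54.4, 54.0, 54.6, 51.9 and 55.8 in A1 to A5. The OXA libraries lay on both sides of a narrow vehicle range, 2 below it and 3 above it. The means were 57.7 ± 13.1 in OXA and 54.1 ± 1.41 in vehicle (log2 fold change 0.060 ± 0.20, 95% interval -0.37 to 0.48, limma adjusted p = 0.846). These values rest on 34 to 100 reads per library, and counting error alone would give an SD of 7.14 in vehicle, above the SD seen.

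Srebf2 (chromosome 15, 82147181 to 82205679) stood at 579, 467, 813, 568 and 583 in C1 and D1 to D4, against 604, 624, 664, 598 and 671 in A1 to A5. Here 4 OXA libraries lay below every vehicle library and 1, D2, above every vehicle library. The means were 602 ± 127 in OXA and 632 ± 33.6 in vehicle, a log2 fold change of -0.093 ± 0.14 (95% interval -0.40 to 0.21, limma adjusted p = 0.660). Leaving out 1 library gave -0.21 (without D2) to -0.0077 (without D1). SREBP2 is controlled mainly by cleavage of its protein, which transcript counts do not measure.

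**Figure D1:**
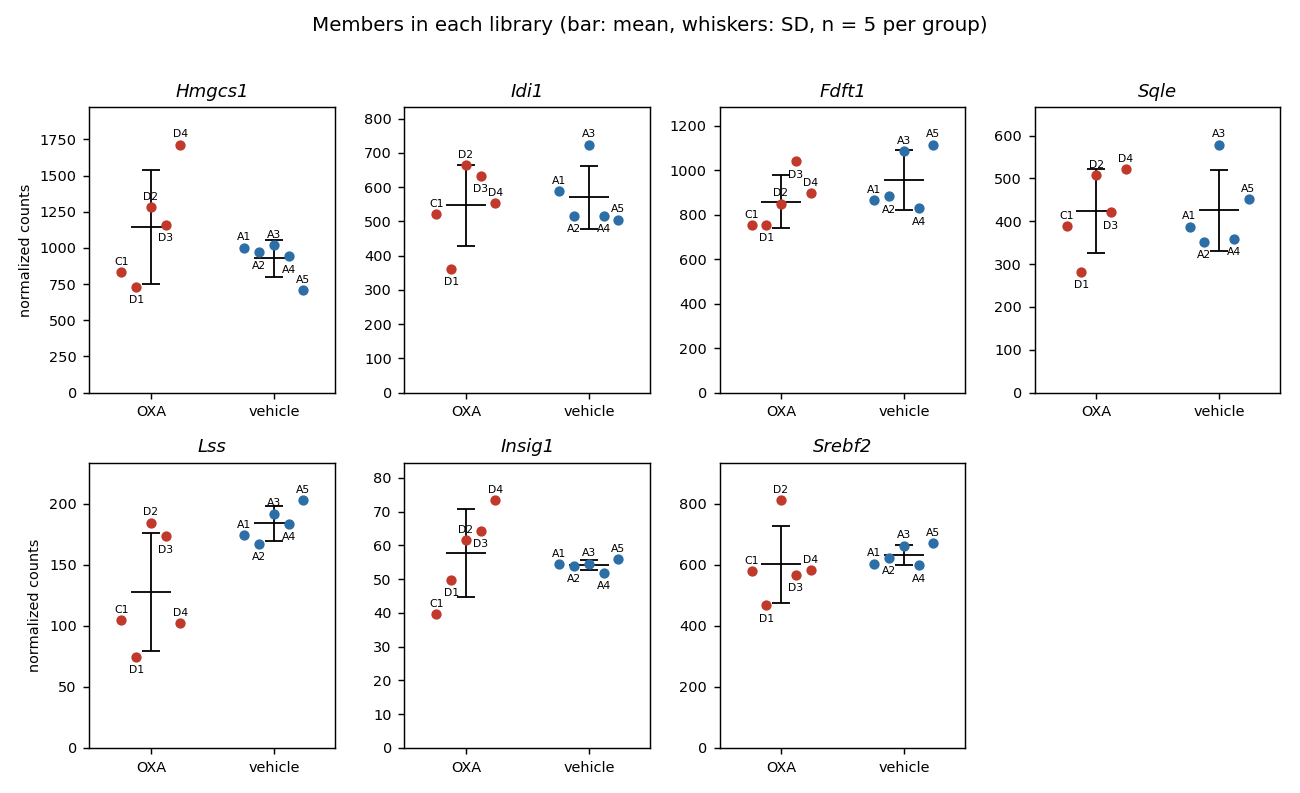
Normalized counts of the 7 members in each library, OXA left and vehicle right; each point is 1 library with its name, the bar is the mean and the whiskers the SD (n = 5 per group). For every member the groups overlap. Below all vehicle libraries lie 3 OXA libraries for Lss and 4 for Srebf2, which also has 1 above. Hmgcs1 and Insig1 each have 3 OXA libraries above all vehicle libraries.

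The OXA libraries differed more among themselves than the vehicle libraries did. For 6 of the 7 members the coefficient of variation was larger in OXA than in vehicle (all but Fdft1), with a median of 22.8% in OXA and 13.7% in vehicle. The same held for 65.6% of all genes tested, with medians of 28.1% and 21.0%. Lss varied by 37.8% in OXA and 7.69% in vehicle, Srebf2 by 21.1% and 5.31%, and Hmgcs1 by 34.3% and 13.7%.

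Members were high and low in the same OXA libraries, with exceptions. D1 held the lowest OXA value of 5 of the 7 members, and C1 that of Fdft1 and Insig1. D2 held the highest of 3 (Idi1, Lss and Srebf2), D4 that of 3 (Hmgcs1, Sqle and Insig1) and D3 that of Fdft1. The 7 members together summed to 2719 normalized counts in D1, 3216 in C1 and 4061 to 4446 in D2, D3 and D4, against 3480 to 4322 in vehicle. D4 split them, since it held the highest Hmgcs1 of any library and an Lss value below all vehicle libraries. Over the 21 synthesis genes examined, D1 was the lowest OXA library for 14, while D2 was the highest for 11 and D4 for 7. Vehicle libraries also ranked alike: A5 was the highest for 11 and A3 for 9, and A2 the lowest for 10. D2 and D4 held the fewest reads among OXA libraries. How often libraries rank this way over all genes was not examined.

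Markers of cell types moved across the same libraries. D1 had the highest skeletal muscle sum of the 10 libraries (257492) and the lowest suprabasal sum (209848), while D2 had the highest suprabasal sum among OXA libraries (547952). D4 had the highest basal epithelium and cell cycle sums of all (46764 and 5814) and the lowest skeletal muscle sum (65810). The 7 basal markers went both ways in OXA, with 2 called higher and 2 lower. In D4, Krt14 stood at 20157 (1916 to 3102 in vehicle) and Krt15 at 3078 (10238 to 14983 in vehicle). With the skeletal muscle level as a covariate, Lss was called lower (-0.69, adjusted p = 0.0435) and the other members stayed uncalled, with Hmgcs1 at 0.058 and Sqle at -0.23. The part of epithelial composition in these differences was not tested.

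**Figure D2:**
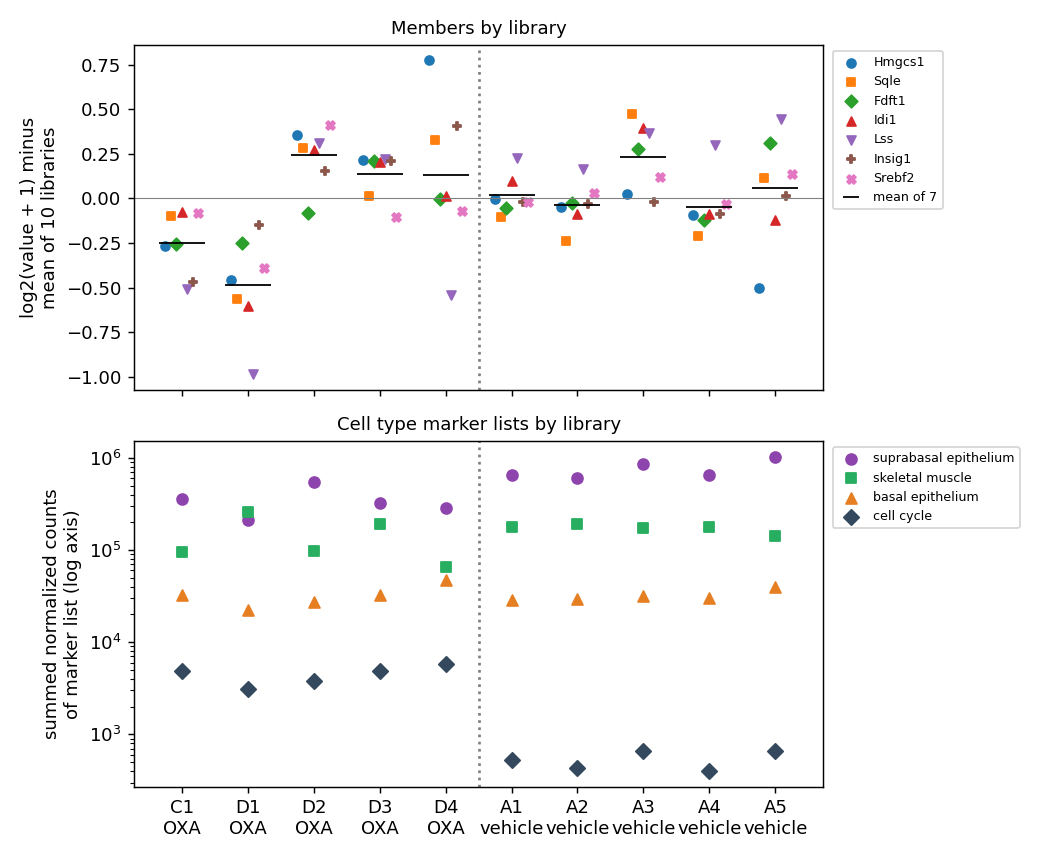
Upper panel, log2(value + 1) of each member minus its own mean over the 10 libraries, with the mean of the 7 as a bar; lower panel, summed normalized counts of 4 marker lists on a log axis; OXA libraries are left of the dotted line. D1 lies lowest for the mean of the 7 members and for suprabasal markers, and highest for skeletal muscle markers. Among single members, Hmgcs1 is lowest in A5, and Fdft1 and Insig1 are lowest in C1.

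Ratios between members within a library do not depend on scaling. Each of the 21 ratios among the 7 members was taken with the gene of lower log2 fold change as denominator. Of these, 2 had no overlap between the groups, both with Lss, the member of lowest log2 fold change, as denominator. The share of such ratios among other pairs of genes was not computed. The ratio of Hmgcs1 to Lss was 7.95 in C1, 9.77 in D1, 6.94 in D2, 6.70 in D3 and 16.8 in D4, against 5.74 in A1, 5.80 in A2, 5.32 in A3, 5.13 in A4 and 3.49 in A5. The ratio of Insig1 to Lss was 0.333 to 0.719 in OXA and 0.275 to 0.323 in vehicle. The groups thus lay close together, and Insig1 had as few as 34 reads in an OXA library. Both ratios were singled out after their values were seen, and no test was made of them.

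Other genes of the pathway were called in both directions. Of 21 synthesis genes (5 of them members; all are enzymes but the scaffold Erg28) 1 was called higher and 8 lower, with a median log2 fold change of -0.18, against 15.7% higher and 14.2% lower over all genes tested. All 9 calls fell on genes outside the 7 members, but members and other genes were not tested against each other. The uncalled member Lss (-0.60 ± 0.22, limma adjusted p = 0.0579) lay close to the called Mvk. Early in the pathway, the mevalonate kinases fell: Mvk to 130.3 ± 38.7 in OXA, against 196 ± 26.1 in vehicle (-0.63 ± 0.20, limma adjusted p = 0.0304), and Pmvk to 169 ± 47.7, against 285 ± 69.0 (-0.75 ± 0.20, limma adjusted p = 0.0130). Fdps, which makes the farnesyl diphosphate that Fdft1 uses, fell to 102 ± 39.8 in OXA, against 193 ± 28.9 in vehicle (-0.98 ± 0.23, limma adjusted p = 0.00568). For each of these genes 4 of 5 OXA libraries lay below every vehicle library. The Mvk call was lost without D1, D4, A1, A3 or A5 (adjusted p = 0.0547 to 0.0716) with scaling to library totals (adjusted p = 0.0587) and with no mean-variance trend (adjusted p = 0.0519). Mvd, the decarboxylase before Idi1, did not pass (-0.26 ± 0.15, limma adjusted p = 0.196).

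After lanosterol, calls went both ways. Cyp51, the demethylase that acts directly after Lss, rose to 1668 ± 380.4 in OXA, against 1067 ± 198 in vehicle (0.63 ± 0.18, limma adjusted p = 0.0178). Its call was lost without the 3 shallowest libraries (0.51, adjusted p = 0.0867). Lower in OXA were the reductase Tm7sf2 (61.3 ± 40.9 in OXA and 159 ± 54.8 in vehicle, -1.57 ± 0.42), the dehydrogenase Nsdhl (118 ± 42.3 and 195 ± 18.8, -0.78 ± 0.21) and the isomerase Ebp (376 ± 103 and 606 ± 132, -0.71 ± 0.21), with limma adjusted p-values of 0.0113, 0.0130 and 0.0181. The desaturase Sc5d and the reductase Dhcr7, which act in turn near the end of the pathway, fell with no overlap between the groups. Sc5d stood at 369 ± 51.8 in OXA and 519 ± 44.1 in vehicle (-0.50 ± 0.13, limma adjusted p = 0.0106), and Dhcr7 at 65.1 ± 16.0 and 116 ± 25.1 (-0.83 ± 0.21, limma adjusted p = 0.00983). Tm7sf2 had 11 to 281 reads per library. Of the 10 genes listed after Lss, 4 did not pass. Among these, the methyl oxidase Msmo1 stood at 1488 ± 432 in OXA and 1663 ± 343 in vehicle (limma adjusted p = 0.522). Lbr, next to Tm7sf2 in the pathway order, stood at 238 ± 79.1 in OXA and 211 ± 34.9 in vehicle (0.13 ± 0.20, limma adjusted p = 0.651).

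**Figure D3:**
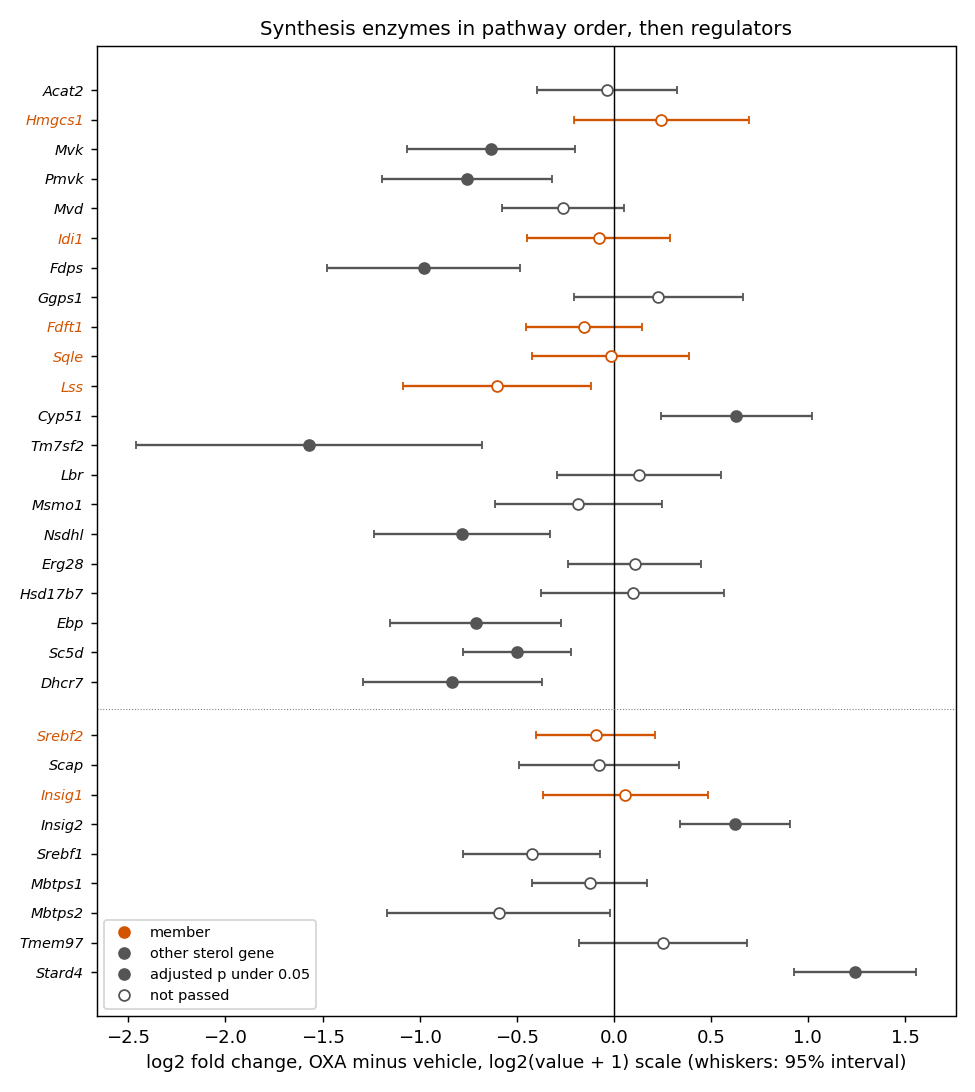
Log2 fold change (OXA minus vehicle) with its 95% interval for 21 synthesis genes in pathway order and 9 genes listed as regulators, among them the sterol carrier Stard4. Members are orange, and filled points have an adjusted p under 0.05. All 7 members are open points, and the 8 lower enzymes and the 1 higher are other genes of the same pathway.

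Of 7 genes on the regulator list beside Srebf2 and Insig1, 2 were called, both higher: Insig2 and the sterol carrier Stard4. Over all genes tested, 29.9% were called in either direction, a like share. The escort Scap stood at 145 ± 42.3 in OXA and 149 ± 18.2 in vehicle (-0.074 ± 0.19, limma adjusted p = 0.8005), and Srebf1, whose product drives fatty acid genes, at 168 ± 34.2 and 224 ± 34.4 (-0.42 ± 0.16, limma adjusted p = 0.0677; called without D3 or A4, adjusted p = 0.0223 and 0.0479). Insig2, the second retention protein, rose to 218 ± 19.2 in OXA, against 141 ± 13.7 in vehicle (0.62 ± 0.13, limma adjusted p = 0.00296). Its values were 185, 227, 232, 229.9 and 216 in C1 and D1 to D4, all above the 126 to 159.8 of the vehicle libraries. Stard4, a carrier that moves sterol between membranes inside the cell, rose to 480.4 ± 59.4 in OXA, against 203 ± 36.2 in vehicle (1.24 ± 0.15, limma adjusted p = 3.67e-05), also with no overlap.

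Of 7 genes of sterol uptake and lysosomal release, 3 were called higher and 1 lower, with a median log2 fold change of 0.33, against 15.7% higher and 14.2% lower and a median of -0.011 over all genes tested. Mylip, a ubiquitin ligase that sends lipoprotein receptors to degradation, fell to 355 ± 47.8 in OXA, against 573 ± 59.0 in vehicle (-0.69 ± 0.13, limma adjusted p = 0.00129). The lipoprotein receptor Lrp8 rose to 41.2 ± 10.7 in OXA, against 13.7 ± 6.20 in vehicle (1.57 ± 0.32, limma adjusted p = 0.00207), and the lysosomal acid lipase Lipa to 172 ± 24.1, against 88.6 ± 24.7 (0.98 ± 0.20, limma adjusted p = 0.00205). The lysosomal sterol carrier Npc2 rose to 904 ± 165 in OXA, against 654 ± 83.1 in vehicle (0.46 ± 0.15, limma adjusted p = 0.0319). It was called in 14 of 24 alternatives. The call was lost without C1, D2, A1, A2 or A4 (adjusted p = 0.0646 to 0.0821), without the 3 shallowest libraries (adjusted p = 0.0690), with the skeletal muscle covariate (0.31, adjusted p = 0.0872), with no filter on low values (adjusted p = 0.0512) and with no mean-variance trend (adjusted p = 0.0605). Npc1, the membrane partner of Npc2, had no overlap between the groups (207 ± 51.7 in OXA and 162 ± 13.7 in vehicle) but did not pass (limma adjusted p = 0.143).

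Among 11 genes of efflux, storage and oxysterols, 4 were called higher and 2 lower, with a median log2 fold change of 0.42, against the same 15.7% and 14.2% over all genes tested. Soat1, which esterifies cholesterol for storage, rose to 99.3 ± 18.1 in OXA, against 30.4 ± 11.6 in vehicle (1.79 ± 0.32, limma adjusted p = 9.21e-04). The oxysterol hydroxylase Cyp7b1 rose to 89.8 ± 24.7, against 18.9 ± 6.27 (2.21 ± 0.28, limma adjusted p = 6.82e-05), and the exporter Abcg1 to 183 ± 38.6, against 89.2 ± 24.9 (1.04 ± 0.21, limma adjusted p = 0.00190). Nr1h2, the liver X receptor beta, which senses oxysterols, fell to 235 ± 44.3, against 486 ± 65.0 (-1.05 ± 0.16, limma adjusted p = 2.08e-04), and Cyp27a1, which makes an oxysterol in mitochondria, to 106 ± 43.3, against 284 ± 20.6 (-1.53 ± 0.27, limma adjusted p = 7.25e-04). Lpcat3, a phospholipid-remodelling enzyme, was called higher with a limma adjusted p only just under the threshold (0.49 ± 0.18), and was called in 10 of 24 alternatives. The call ended without C1, D2, D4, A1, A2, A3 or A4 (adjusted p = 0.0661 to 0.129), and the fold change was lowest with the skeletal muscle covariate (0.29, adjusted p = 0.166). The exporter Abca1 did not pass (0.42 ± 0.15, limma adjusted p = 0.0556; called in 4 of 24 alternatives). Those were DESeq2 (adjusted p = 0.0439), scaling to library totals (0.54, adjusted p = 0.0265), and leaving out D3 (adjusted p = 0.0292) or A2 (adjusted p = 0.0397). Macrophage markers were higher in OXA for 7 of 8 genes and summed to 4513 to 8442 in OXA and 2187 to 3922 in vehicle; their part in these differences was not tested.

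**Figure D4:**
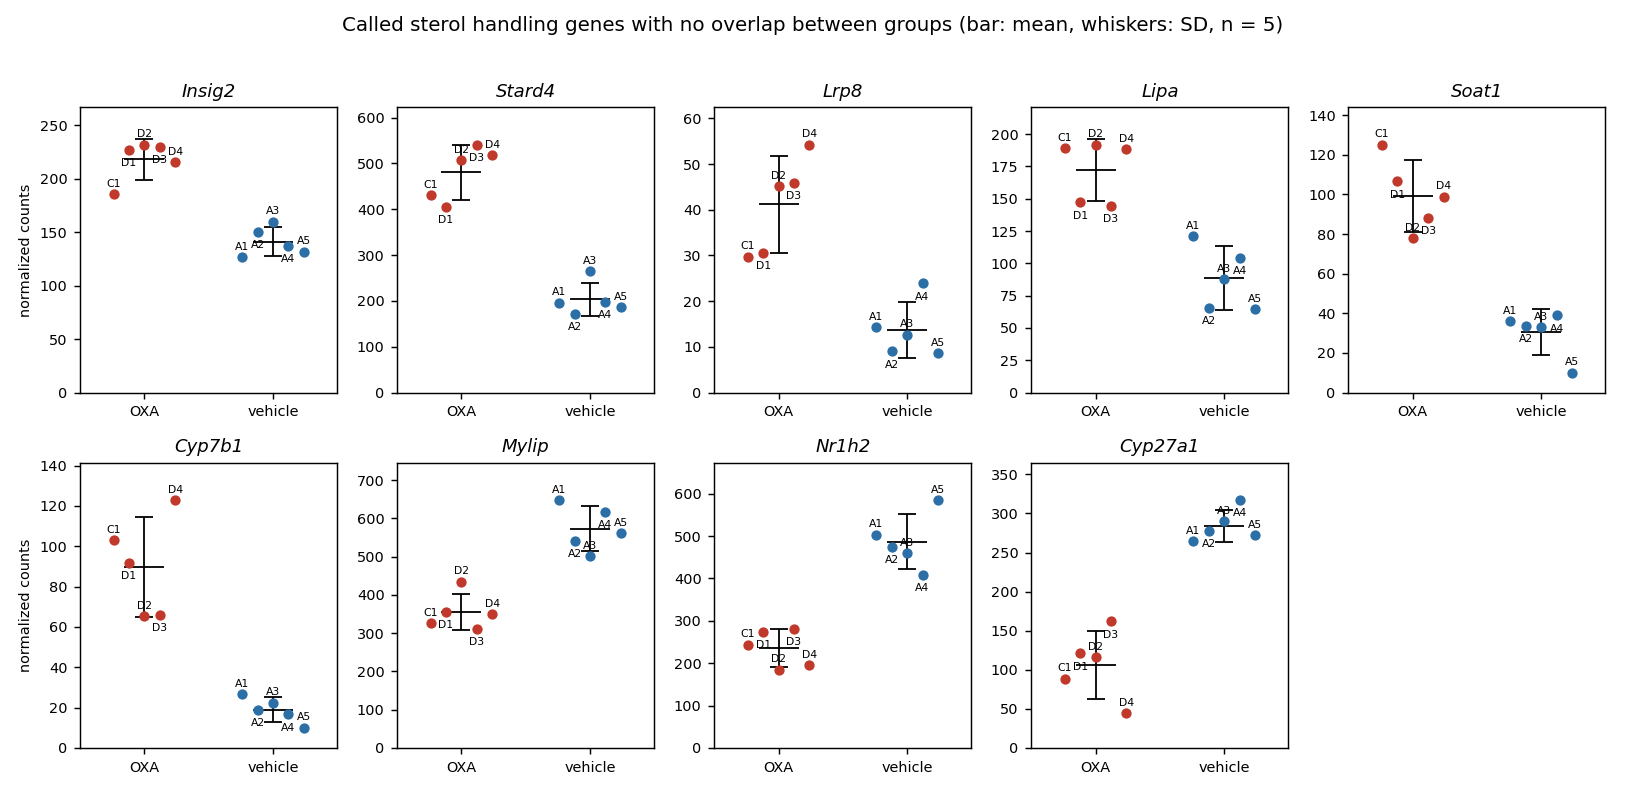
Normalized counts in each library of 9 called genes of sterol regulation, uptake, storage and oxysterols whose groups do not overlap, OXA left and vehicle right; each point is 1 library, the bar is the mean and the whiskers the SD (n = 5 per group). The first 6 genes are higher in all OXA libraries and Mylip, Nr1h2 and Cyp27a1 lower in all of them. The 9 genes were picked from lists of 7, 7 and 11 genes because their groups separate. Over all genes tested, 22.4% had no overlap.

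Likeness to the members was measured as the root-mean-square difference between log2 profiles over the 10 libraries, each centred on its own mean, across 11347 other genes with a mean of at least 20. Predicted genes (Gm and Rik names) and genes of the mitochondrial genome were left out before the ranking. The genes nearest to the mean profile of the 7 members were Kbtbd7 (0.0579), Map2k4 (0.0918), Rxra (0.0997), Cops4 (0.107) and Golga7 (0.109), against a median of 0.435 over all genes ranked. None of these 5 differed between the groups by limma (adjusted p = 0.413 to 0.905), and none was on the sterol lists. The lack of difference follows from picking genes by likeness to a mean profile that hardly differed between the groups. For single members the nearest genes were Lsm1 for Hmgcs1 (0.137), Golga7 for Sqle (0.104), Lcmt1 for Fdft1 (0.0935), Map2k4 for Idi1 (0.115), Foxq1 for Lss (0.158), Rab10 for Insig1 (0.126) and Mlx for Srebf2 (0.0815). Foxq1 was itself called lower in OXA (-0.71, limma adjusted p = 0.0300), with its lowest values in D1 and D4, as for Lss. Because Foxq1 was picked for its likeness to Lss over these same libraries, this resemblance follows from the choice.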

How the data were processed

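CEL-Seq, which reads transcript 3′ ends, was applied to TRIZOL-extracted RNA, per the labels' protocols. The submitters' processing notes list, with no stated role, GRCm38 and the programs HTSeq 0.11.2, TopHat2 2.1.0, DESeq2 1.18.1, FastQC 0.11.5, Bowtie2 2.2.6, cutadapt 1.10 and Trim Galore. How strand, multiply mapped reads and molecular identifiers were handled is not stated there. The authors deposited a normalized signal for each gene, namely gene counts over a size factor: dividing by the value of 1 read gave whole reads for 100% of values (tolerance 0.006). Reads are not known to be independent molecules, so counting errors cover counting only.

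Because these values are not raw counts, limma 3.58.1 (mean-variance trend, two-sided) was fitted to log2(value + 1) of all 10 libraries with treatment as the sole term. A mean of 5 or more was required, which left 14712 genes, and p-values were adjusted over them by Benjamini-Hochberg. Fold changes on this scale understate low genes. Alternatives, 24 in all, included edgeR 4.0.16 and DESeq2 1.42.0 on recovered reads, other filters, pseudocounts and scalings, a skeletal muscle covariate and leaving out each library. Single genes also had an exact permutation test over libraries. The fit was tested on simulated data. Members and gene lists were chosen with earlier results of these data known. Named were all members, every called gene of the sterol lists, and uncalled genes standing for a step. Some genes of the pathway are not reported here and enter no list count.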

Additional observations from a re-analysis of the deposited data

Results flagged for a closer look

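Of 96 sets of 5 values examined (48 sterol genes in 2 groups), 10 had 1 library far from the other 4, by Dixon's test at its 95% critical value; chance gives about 1 in 20. Hmgcs1 was flagged in vehicle, where A5 stood at 708 normalized counts and the others at 941 to 1021. In D4 of OXA, Npc1 stood at 299 (others 174 to 196), Ggps1 at 295 (157 to 189) and Lbr at 375 (191 to 236). Other OXA libraries were D1 for Acat2 (247, others 377 to 426), D2 for Pmvk (251.7, others 131 to 163) and D3 for Srebf1 (227, others 139 to 161). Vehicle libraries were A5 for Soat1 (10.02, others 33.1 to 39.0), A3 for Stard4 (265, others 171 to 198) and A1 for Npc1 (138, others 164 to 172).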

How the results depend on the processing

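In the 24 alternatives no member was called higher, and only Lss was called lower, in 4 of them, which makes 1 member called: with array weights (-0.58, adjusted p = 0.0248), with the skeletal muscle covariate (-0.69), and without D2 or D3. Leaving out 1 library in turn gave 0 to 1 members called lower and -0.75 to -0.43 for Lss; its adjusted p ran from 0.0151 to 0.144 over all alternatives. Signs of members near 0 turned. Scaling to library totals gave 0.11 for Sqle, 0.052 for Idi1 and 0.036 for Srebf2; array weights gave 0.022 for Sqle and -0.061 for Insig1. Without the 3 shallowest libraries Hmgcs1 was at -0.14 and Insig1 at -0.095. Leaving out 1 library gave -0.098 to 0.12 for Sqle, -0.16 to 0.064 for Idi1, -0.033 to 0.18 for Insig1, 0.082 to 0.39 for Hmgcs1, -0.23 to -0.095 for Fdft1, -0.21 to -0.0077 for Srebf2 and -0.21 to 0.034 for Scap; Scap was also at 0.055 with library totals. With the replicate block (the number in the titles) Sqle was at 0.069 and Scap at 0.024, with no member called. In that fit C1, D1 and A1 shared a block, and A5, alone in its block, added nothing to the contrast. Correlations of deviations from group means ran from -0.234 to 0.190 for same-numbered libraries and from -0.233 to 0.246 for the others. Such correlations cannot show whether the numbers pair libraries. The block took the call from Mvk, Pmvk, Ebp, Npc2 and Lpcat3. The cause of these shifts was not tested. Outside the members, 7 to 11 sterol genes were called higher and 8 to 12 lower over the alternatives. Among the members Insig1 had the fewest reads, 34 to 100 per library; among other named genes Lrp8 had 6 to 48.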
